A study of Sus scrofa with 180 samples.

Results

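CCND2, CCND3 and CDKN1B are 3 genes that act on the G1 phase of the cell cycle, and their expression was followed here in 2 skeletal muscles of the same pigs. They were chosen by gene symbol from the study's published gene lists, of which the second, of genes higher in SM, was at hand only in part. Every probe that the lists at hand pair with 1 of the 3 symbols was taken: 1 probe of CCND2, 2 probes of CCND3 and 1 probe of CDKN1B. They are 3 of the 3481 genes that those lists name at hand, and their probes are 4 of the 15198 probes on the array and 4 of the 10987 probes kept after the quality criteria. RNA came from the Longissimus lumborum (LM), a muscle of the loin, and the Semimembranosus (SM), a muscle of the ham, of 90 pigs, with 1 single-colour array for each muscle of each pig (90 arrays of LM and 90 of SM). The pigs were untreated animals of half-sib families from an intercross of sire lines of Pietrain type and of mixed Duroc, Large White and Hampshire origin, raised on 1 farm and sampled shortly after death at commercial slaughter weight, and the age of each animal is not in the labels. All arrays were of whole muscle RNA, in which fewer cells of a type and less RNA per cell cannot be told apart. No slide and no scan day held both muscles (21 slides and 10 days for LM, 14 slides and 5 days for SM), so a difference between slides or days adds to one between the muscles.

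A cell that enters the cycle makes D-type cyclins, which bind the kinases CDK4 and CDK6 and start the phosphorylation of the retinoblastoma proteins, so that E2F factors turn on the genes of DNA replication. CDKN1B encodes p27, an inhibitor that binds cyclin and kinase complexes and holds cells in G1. In muscle, fibres are postmitotic and the cells that can divide are the satellite cells beneath the basal lamina of the fibre, other resident cells aside. CCND3 is also known to rise when myoblasts leave the cycle and differentiate, and p27 is high in quiescent and differentiated muscle cells.

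The probes are 60-base oligonucleotides, and the first 30 bases of each are shown as the scanner's output lists them because 1 of the covariates is built from probes with many C at their start. Capitals mark the first 15 bases. The 2 probes of CCND3 were designed on the same pig transcript contig and are called probe A and probe B.
CCND2: CTCTCTGGTTGTGTTttgttctcttatgtt
CCND3 probe A: ACAAGGTCCAGGCTGgtggcccaggaccat
CCND3 probe B: TTTATTAATTGCTTTaagtacaactataag
CDKN1B: ACCTGCCACAGACGAttcctctcctccctc
In the first 15 bases the CCND2 probe has 3 C, CCND3 probe A has 4, CCND3 probe B has 1 and the CDKN1B probe has 6. The median of the probes kept is 3. Over the first 30 bases the CDKN1B probe has 15 C, and 0.655% of the probes kept have as many. In the RefSeq annotation of Sscrofa11.1, CCND2 lies on chromosome 5 (66092483 to 66114575), CDKN1B on the same chromosome (59731224 to 59735831) and CCND3 on chromosome 7 (37087336 to 37182462). Which exon or untranslated part each probe reads was not determined here.

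All 3 genes had a higher mean signal in SM than in LM. CCND3 differed by 2.17-fold and 2.43-fold with its 2 probes, CCND2 by 1.62-fold and CDKN1B by 1.59-fold, without a covariate. The direction of CDKN1B turned with a covariate per array that itself differed between the muscles. Signals are given as centred log2 values, that is, the log2 of the scanner's processed signal minus the median of the array, and fold changes are LM over SM, so that a negative log2 value is a higher signal in SM. Muscles were compared with limma over all 10987 probes, with Benjamini-Hochberg adjustment. At an adjusted p of 0.05 or less, 83.5% of the probes were called, 47.7% with the higher signal in SM and 35.7% with the higher signal in LM. The 4 probes were all called higher in SM, but the published lists hold only probes that the study called on these same arrays, so their call and direction are not independent evidence.

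**Figure D1:**
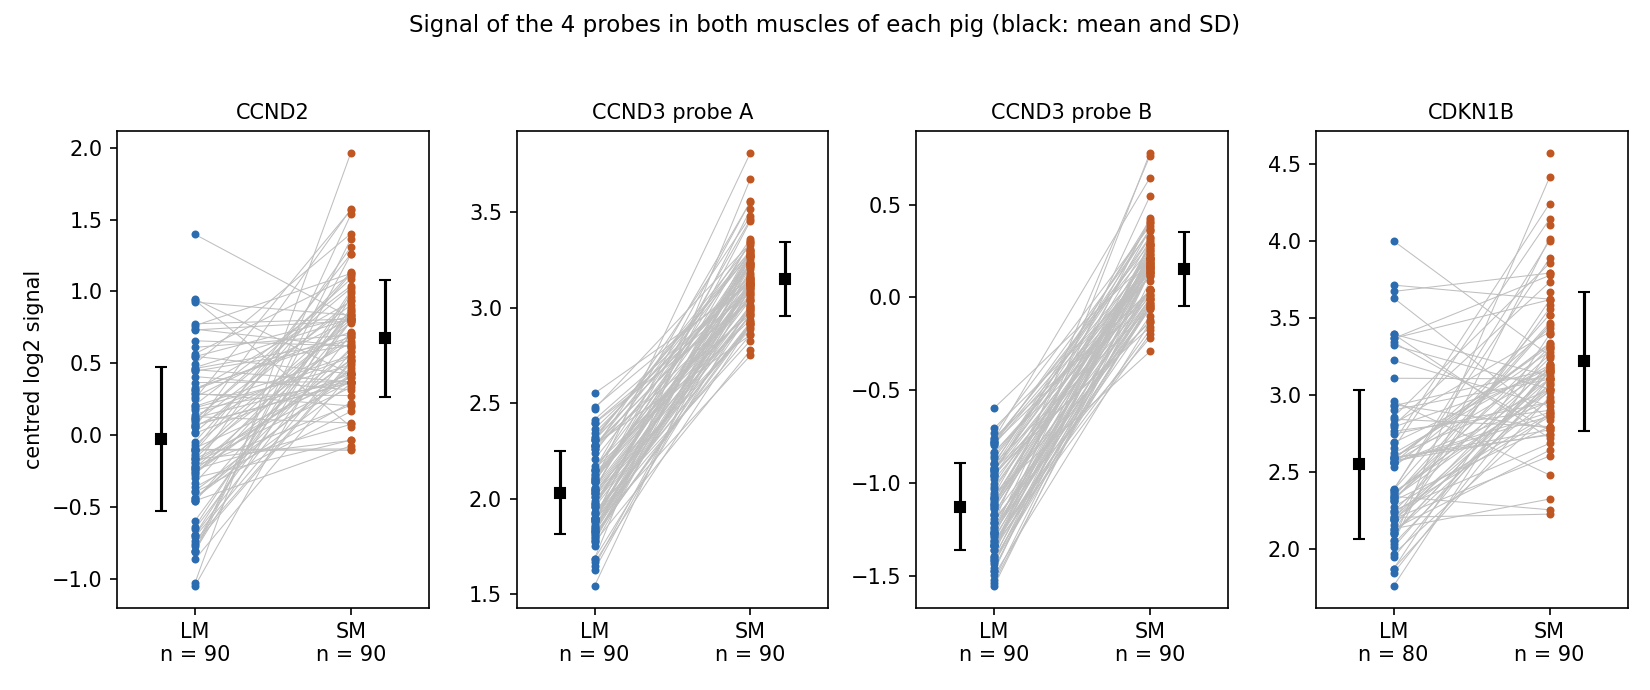
Centred log2 signal (vertical axis, a separate scale in each panel) of the 4 probes in LM and SM, with a grey line joining the muscles of a pig and black squares and bars for the mean and SD of a muscle. The values of both CCND3 probes do not overlap between the muscles (90 of 90 pigs higher in SM), while those of CCND2 (77 of 90) and CDKN1B (67 of 80) do. The share of all probes without overlap was not counted.

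CCND3, a D-type cyclin, differed most. With probe A the centred log2 signal in LM ran from 1.54 through a median of 2.03 to 2.55, and in SM from 2.75 through 3.13 to 3.81. With probe B it ran from -1.55 through -1.13 to -0.60 in LM, and from -0.29 through 0.16 to 0.78 in SM. Every SM array was above every LM array with either probe. The share of all probes kept that separate in this way was not counted. Probe A had a mean of 2.03 ± 0.22 (SD, n = 90) across LM arrays and one of 3.15 ± 0.19 (SD, n = 90) across SM arrays. Its log2 fold change was -1.12 (SE 0.031, limma adjusted p = 4.44e-83), a 2.17-fold higher signal in SM (95% confidence interval 2.08 to 2.27). This fit took all arrays as independent. The SE of probe A was 0.039 with slide as a random block and 0.050 with scan day as one. Probe B gave a log2 fold change of -1.28 (SE 0.032), a 2.43-fold higher signal in SM (2.32 to 2.54), and SD of 0.23 in LM and 0.20 in SM. Both changes are several times the SD of either muscle. Of the probes kept, 774 had a fold change as large as that of probe A or larger and 588 as large as that of probe B, in either direction.

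CCND2, also a D-type cyclin, differed less and overlapped between the muscles. Its centred log2 signal ran from -1.05 through a median of -0.077 to 1.40 in LM and from -0.10 through 0.65 to 1.96 in SM. Of the 90 LM arrays, 49 were above the lowest SM array and 9 were above the SM median. Within pigs, SM was higher in 77 animals and LM in 13, and the difference (LM minus SM) ran from -2.99 through -0.59 to 0.88. The log2 fold change was -0.70 (95% confidence interval -0.83 to -0.56, limma). The SD within a muscle was 0.50 in LM and 0.41 in SM, so that the difference was of the order of 1 to 2 SD.

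CDKN1B had a similar difference on the same scale. Of its 90 LM spots, 10 were not uniform, 3 of which were also saturated, and these were set to missing, so that 80 LM arrays and 90 SM arrays were used. The failed spots lay on 5 slides and read from 4086 to 312043 in processed signal, while the 80 spots used read from 1750 to 8621. The centred log2 signal ran from 1.76 through a median of 2.46 to 4.00 in LM and from 2.23 through 3.16 to 4.57 in SM. Of the 80 LM arrays, 57 were above the lowest SM array. LM averaged 2.55 ± 0.48 (SD, n = 80), SM averaged 3.22 ± 0.45 (SD, n = 90), and the log2 fold change was -0.67 (SE 0.071, limma adjusted p = 7.45e-17). SM was higher in 67 of 80 pigs. With the failed spots kept, the log2 fold change was -0.54.

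The direction of CDKN1B turned once an index of C-rich probes, 1 value per array, was a covariate. This index was computed for each array from 215 C-rich probes, in which at least 8 of the first 15 bases are C, and 3954 C-poor probes, in which at most 2 are, as the mean centred value of the first set less that of the second, and none of the 4 probes enters it. On the log2 scale it averaged -0.37 ± 0.34 (SD, n = 90) over LM arrays but 0.38 ± 0.31 (SD, n = 90) over SM arrays, so it moved with the muscle. The signal of CDKN1B correlated with the index over the pigs of a muscle with a Pearson r of 0.85 in LM (n = 80) and 0.93 in SM (n = 90), and with a Spearman rho of 0.87 and 0.90. Each had a permutation p of 1e-05, the smallest that 100000 permutations can give (adjusted over 8 relations, 4e-05). Without the 2 arrays farthest from the median index, r was 0.83 in LM and 0.92 in SM, and with slide means subtracted it was 0.91 and 0.95.

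**Figure D2:**
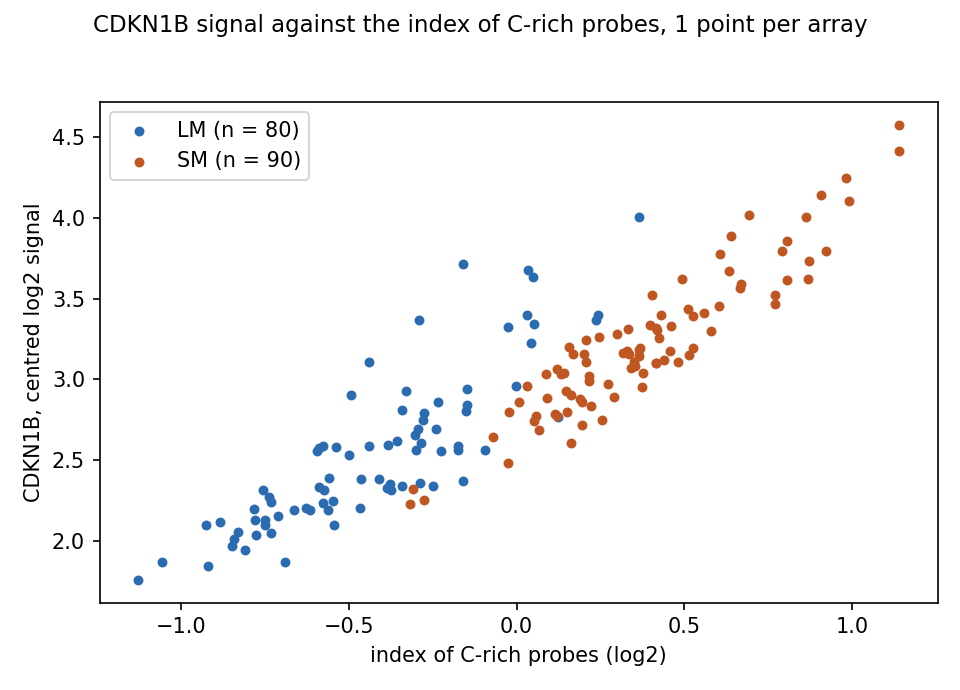
Centred log2 signal of CDKN1B (vertical axis) against the index of C-rich probes (log2, horizontal axis), 1 point per array, for 80 LM and 90 SM arrays. Signal and index rise together in each muscle (r of 0.85 and 0.93), and the LM arrays lie at a lower index than most SM arrays.

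With the index as a covariate in limma, the log2 fold change of CDKN1B was 0.41 (SE 0.054, adjusted p = 8.4e-12), that is, higher in LM. It was 0.35 with the pig as a block as well and 0.39 with the position on the slide as well. In LM, 215 of the 10987 probes had a higher r with the index than CDKN1B had, and in SM 99 did. Of the 701 probes with 6 C in their first 15 bases, as the CDKN1B probe has, the median r with the index was -0.0013 in LM and 0.15 in SM. Of the 421 probes with 6 C that were called higher in SM, 7.13% were called higher in LM once the index was a covariate. The same share was 5% for probes with 0 to 2 C, 4.9% with 3 to 5 C and 38.4% with 8 or more. The median log2 fold change of all probes kept in a class, without the index, also went with the number of C. It was -0.0040 with 0 to 2 C, -0.072 with 3 to 5, -0.20 with 6 and -0.67 with 8 or more. Since the index itself differs between the muscles, a muscle difference of CDKN1B and one of the index cannot be told apart in these arrays, and its direction depends on this choice.

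The cyclins kept their direction with the index. CCND2 was at -0.64, CCND3 probe A at -1.01 and CCND3 probe B at -1.19, all called higher in SM. Their r with the index was 0.013 in LM and 0.10 in SM for CCND2, 0.096 and 0.40 for CCND3 probe A, and 0.13 and 0.22 for CCND3 probe B. Among these 6 relations, that of CCND3 probe A in SM passed the threshold (permutation adjusted p = 0.00024 for r, and 0.0018 for a rho of 0.36, with an r of 0.43 without the 2 farthest arrays), and with slide means subtracted its r was 0.27.

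**Figure D3:**
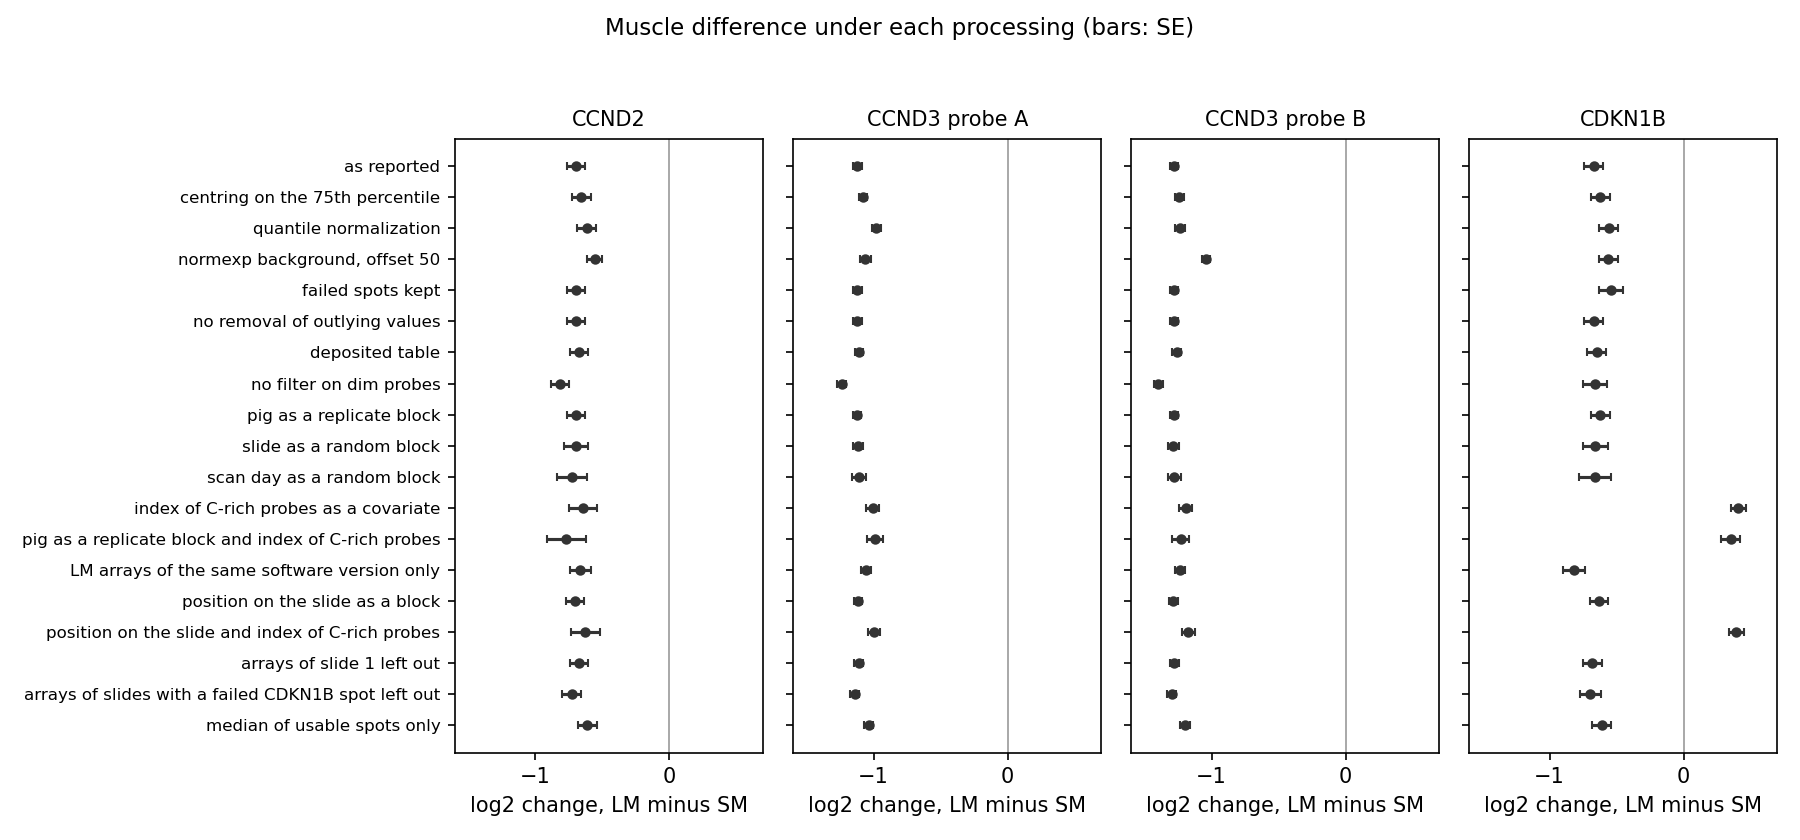
Log2 fold change (LM minus SM, horizontal axis, bars for the SE) of the 4 probes as reported and under 18 other ways of processing or fitting the arrays. All values lie below 0 except 3 of CDKN1B, those with the index of C-rich probes, which lie between 0.35 and 0.41.

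The size of the change was also compared between probes within pigs, by sign-flip permutation tests of 6 pairs. The change of CCND3 was larger than that of CCND2 by 0.42 with probe A (95% confidence interval 0.27 to 0.57, 67 of 90 pigs) and by 0.58 with probe B (0.43 to 0.74, 74 of 90 pigs), both with a permutation p of 1e-05 (adjusted 1.2e-05). The change of CCND3 minus that of CDKN1B was -0.50 with probe A (-0.64 to -0.36, CCND3 lower in 62 of 80 pigs) and -0.66 with probe B (-0.81 to -0.52, 68 of 80 pigs). The changes of CCND2 and CDKN1B differed by -0.023 (-0.24 to 0.19, permutation adjusted p = 0.83). These comparisons were made without the index, with which the changes of CDKN1B and the cyclins are opposite in sign.

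The 2 probes of CCND3 followed each other from pig to pig. Their Pearson r was 0.72 in LM (95% confidence interval 0.60 to 0.81, rho 0.69) and 0.80 in SM (0.72 to 0.87, rho 0.73), each with n = 90 and a permutation p of 1e-05 (adjusted over 16 relations, 8e-05). With slide means subtracted, r was 0.78 in LM and 0.88 in SM, and without the 2 pigs farthest from the median of probe A it was 0.70 and 0.75. With normexp background correction it was lower, 0.39 in LM and 0.45 in SM, and still past the threshold. Within single scan days of 6 or more arrays it ran from 0.57 to 0.94 over 6 days in LM and from 0.77 to 0.95 over 5 days in SM. No probe kept outside CCND3 had a higher r with either CCND3 probe, in LM or in SM, than the 2 probes had with each other. Both probes share every array and RNA sample, so this agreement covers technical as well as animal spread. The gap between the r of the muscles was not past the threshold (permutation adjusted p = 0.52).

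**Figure D4:**
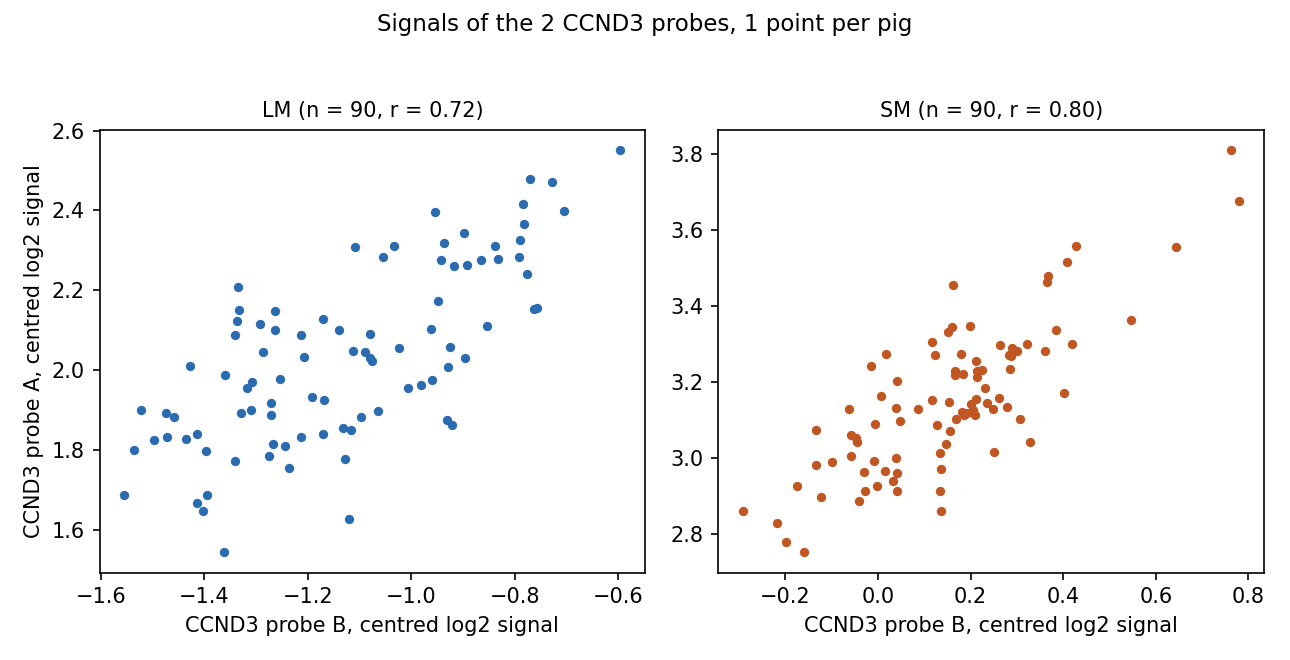
Centred log2 signal of CCND3 probe A (vertical axis) against that of probe B (horizontal axis), 1 point per pig, in LM (left, n = 90) and SM (right, n = 90), with separate scales. The probes rise together in both muscles (r = 0.72 and 0.80).

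The 2 CCND3 probes did not give the same size of change. Probe B fell further in LM than probe A in 73 of 90 pigs, by a mean of 0.16 on the log2 scale (95% confidence interval 0.12 to 0.20, sign-flip permutation p = 1e-05, adjusted 1.2e-05). Probe B was the dimmer spot, with a median processed signal of 238 in LM and 468 in SM, against 2060 and 3754 for probe A. With the background corrected by normexp instead, the gap was -0.019 and no longer past the threshold (adjusted p = 0.73), and with quantile normalization it was 0.25.

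CCND2, CCND3 and CDKN1B showed little relation to each other over pigs of 1 muscle. In LM, the 5 correlations between different genes ran from -0.092 to 0.070, with permutation p values adjusted over 16 relations from 0.56 to 0.71. In SM they ran from 0.11 to 0.35. For comparison, the median absolute r of a member with any other probe was between 0.11 and 0.18. Only the relation of CCND3 probe A with CDKN1B in SM passed the threshold (r = 0.35, 95% confidence interval 0.16 to 0.52, rho 0.36, n = 90, permutation adjusted p = 0.0026).

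That relation did not hold in the second CCND3 probe, whose r with CDKN1B in SM was 0.21 (adjusted p = 0.21). It was positive on each of the 5 SM scan days (0.082 to 0.57), but with slide means subtracted it was 0.24 and no longer past the threshold (adjusted p = 0.19), and after the C-rich index was taken out it was -0.060. In LM the same pair had an r of -0.092 (n = 80). Over the 80 pigs with both values, the correlations of the muscles differed by -0.41 on Fisher's z scale (permutation adjusted p = 0.045 over 6 pairs), and with slide means subtracted by 0.027 (adjusted p = 0.87).

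CCND2 and CDKN1B, a cyclin and its inhibitor, had an r of -0.092 in LM (n = 80) and 0.11 in SM (n = 90), neither past the threshold. With slide means and the index both taken out, a choice made after the data were examined, r was -0.35 in LM and -0.30 in SM (both adjusted p = 0.044). CCND2 and CCND3 had an r of 0.070 and 0.061 in LM and of 0.14 and 0.18 in SM with the 2 CCND3 probes.

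**Figure D5:**
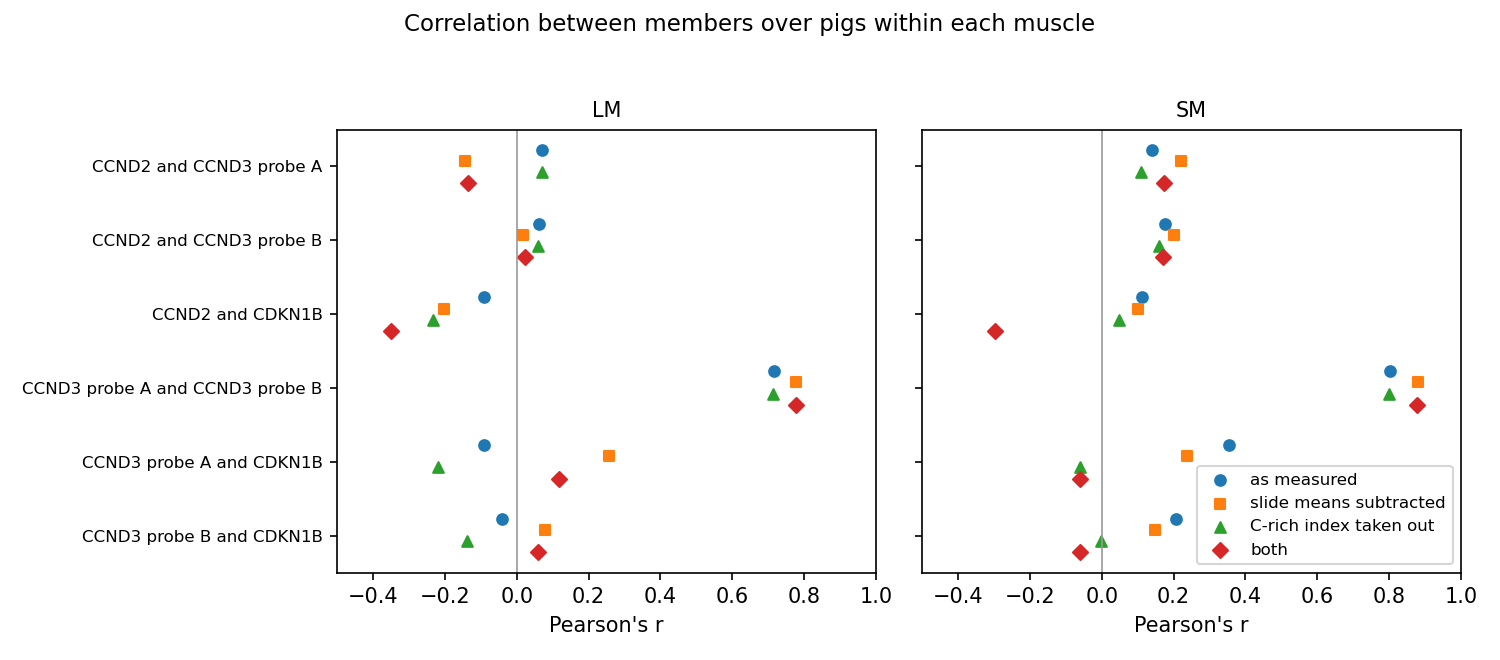
Pearson r (horizontal axis) for each pair of the 4 probes over pigs, in LM (left) and SM (right), as measured, with slide means subtracted, with the C-rich index taken out, and with both. The CCND3 pair lies at 0.71 or higher in these 4 settings, and the other pairs lie between -0.35 and 0.35.

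A pig with a high level in 1 muscle was not found to have a high level in the other. Between LM and SM of a pig, r was -0.098 for CCND2 (n = 90, 95% confidence interval -0.30 to 0.11), 0.088 for CCND3 probe A (-0.12 to 0.29), 0.12 for CCND3 probe B (-0.088 to 0.32) and 0.060 for CDKN1B (n = 80, -0.16 to 0.28). All 4 had permutation adjusted p values of 0.56 or higher. The intervals leave room for weak relations of either sign.

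Part of the spread between pigs of a muscle lay between slides. Slides explained 50.3% of the variance of CCND3 probe B in LM and 41.7% of that of CCND3 probe A (adjusted for the number of slides, limma F test adjusted p = 6.85e-07 and 3.68e-05, 18 slides of 3 or more arrays), against a median of 19.4% over all probes. In LM, 58.8% of the probes kept differed between slides, and CCND2 (14.3%, adjusted p = 0.054) and CDKN1B (12.4%, adjusted p = 0.0997) were not past the threshold. In SM, where 14% of the probes kept differed between slides, the 4 probes had shares from 3.07% to 14.1% and none passed (adjusted p from 0.082 to 0.47). The mean of CCND3 probe B on single LM slides ran from -1.42 to -0.79, and on single SM slides from 0.028 to 0.30. Since single arrays did not overlap between the muscles with this probe, its slide means could not overlap either. In LM, the mean of CDKN1B was 2.70 on the arrays read by Feature Extraction 9.5.1.1 and 2.40 on those read by version 9.5.3.1, which also read all SM arrays. With the LM arrays of version 9.5.3.1 alone, the log2 fold change of CDKN1B was -0.82, that of CCND2 -0.67 and those of CCND3 -1.06 (probe A) and -1.23 (probe B).

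Other genes that act in G1 were read from a list of 30 cyclins, kinases, inhibitors, retinoblastoma proteins and E2F factors. The published gene lists, as far as they were at hand, name 7 of these with 8 probes, among them the 3 genes above. The other 23 were not analysed here. Of the 8 probes, 2 were called higher in LM and 6 higher in SM, and the 6 include the 4 probes of CCND2, CCND3 and CDKN1B. Over all probes kept, 35.7% were called higher in LM and 47.7% higher in SM. The median log2 fold change of the 8 probes, -0.59, rests in part on the members themselves. Since only probes called by the study carry a name, these counts hold no information on genes that did not differ. Only part of the list of genes higher in SM was at hand, so such genes may be missing from these counts and from those below.

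RBL1 and RBL2, the pocket proteins p107 and p130 that hold E2F factors back, were the 2 higher in LM. RBL1 averaged -0.42 ± 0.20 (centred log2, SD, n = 90) across LM arrays and -2.30 ± 0.43 (SD, n = 90) across SM arrays, a 3.68-fold difference that was in this direction in 90 of 90 pigs. RBL2 was 1.27-fold higher in LM (67 of 90 pigs). CDK2, the kinase that cyclin E activates and p27 inhibits, was higher in SM (log2 fold change -0.51, 78 of 88 pigs), as was CDKN2D, an inhibitor of CDK4 and CDK6 (-0.52, 89 of 90 pigs). With the index as a covariate these 4 kept their direction and their call.

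Of 23 genes that act on the D-type cyclins, on p27 or on the activation of their kinases, 6 are named, with 7 probes, of which 5 were called higher in LM and 2 higher in SM. Over all probes kept, the shares were 35.7% and 47.7%. SKP2, which marks p27 for degradation, was higher in LM (0.53 on the log2 scale), but its spot was well above background on 84 LM and 48 SM arrays. COPS5, a subunit of the COP9 signalosome known to bind p27, was 1.42-fold higher in LM (88 of 90 pigs). MNAT1, an assembly factor of the kinase that activates CDKs, was higher in LM with both of its probes (0.95 and 0.93 on the log2 scale, in 90 and 89 of 90 pigs). AKT2, a kinase of the insulin pathway, differed by 0.19 (27 of 44 pigs), with its spot well above background on 74 LM and 53 SM arrays. For SKP2 and AKT2 the differences cover only arrays on which the spot was bright enough. CDK5 (-0.54) and KPNA2, an importin (-0.36), were higher in SM. None of the 7 changed direction with the index.

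Genes of replicating and dividing cells were named for 4 of 19 entries, 1 called higher in LM and 3 in SM, where the shares over all probes kept were 35.7% and 47.7%. PCNA, the sliding clamp of DNA polymerase, was 1.52-fold higher in SM in 90 of 90 pigs. MCM2 and MCM5, parts of the replicative helicase, were 1.61-fold and 1.58-fold higher in SM. MKI67, a marker of cycling cells, was 1.12-fold higher in LM (53 of 90 pigs), and with the index its log2 fold change was -0.14 and not called (adjusted p = 0.093).

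Markers of other cell types also differed between the muscles, as did 83.5% of all probes kept. Of the satellite cell and myoblast markers, 4 of 12 are named. MYOD1 (-0.81), SDC4 (-0.91) and NCAM1 (-0.48) were called higher in SM and MYOG (0.44) higher in LM, and with the index MYOD1 was at 0.69, MYOG was no longer called (adjusted p = 0.12) and the other 2 kept their call. MYOD1 had values on only 71 LM and 80 SM arrays. The 3 named adipocyte markers of 5 (ADIPOQ, PLIN1 and CIDEC) were all higher in SM, by 2.18-fold to 2.39-fold. Their summed signal on the centred log2 scale ran from -1.61 through a median of 0.45 to 3.70 in LM and from -0.46 through 1.63 to 3.88 in SM. The PLIN1 spot was well above background on 81 LM and 89 SM arrays.

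The 2 named endothelial markers of 6 (CDH5 and VWF), the 1 fibroblast marker of 5 (LUM) and the 1 lymphocyte marker of 5 (PTPRC) were higher in SM by 1.22-fold to 1.49-fold. Of the 3 macrophage markers named of 7, C1QC and CD14 were higher in SM (2.70-fold and 2.18-fold) and CD68 higher in LM (1.32-fold). The CD68 spot was dim, and well above background on 89 LM and 79 SM arrays. The summed signal ran from 1.28 to 2.15 in LM and 1.87 to 2.91 in SM for the endothelial markers, from -0.97 to 1.26 and -0.023 to 2.36 for the macrophage markers, and from 0.60 to 3.41 and 0.76 to 2.36 for those of satellite cells. For fibroblasts it ran from -0.68 to 1.01 in LM and -1.04 to 1.86 in SM, and for lymphocytes from -1.93 to 1.02 and -2.12 to 0.98. On this scale 0 is the median of an array and not an absence of signal. The part of these markers in the differences of CCND2, CCND3 and CDKN1B was not tested. The 6 probes of the 5 named fibre genes of 10 were well above background on all 90 arrays of each muscle, which fits skeletal muscle but cannot tell LM from SM. ACTA1 (1.78-fold and 1.63-fold with its 2 probes), MYH1 (1.48-fold) and MB (1.26-fold) were higher in SM, and MYL1 (1.83-fold) and CKM (1.23-fold) higher in LM. The summed signal of the fibre genes ran from 10.3 to 11.4 in LM and from 10.9 to 11.8 in SM.

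Among the 3967 named probes kept, those most like each member were ranked by the lower of their r in LM and in SM, with slide means subtracted. For CCND2 these were CKAP4 (0.62), PAM16 (0.57) and PRRX2 (0.55). For CCND3 probe A they were ARSA (0.55), MDK (0.54) and LGALS3BP (0.49), and for probe B C11ORF84 (0.47), ARSA (0.45) and MOV10 (0.45). For CDKN1B they were CXXC1 (0.94), SMC1A (0.94) and DAO (0.94), of which the CXXC1 probe has 8 C in its first 15 bases and the other 2 have 5. These r describe arrays that share slides, labelling and centring, and carry no test.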

How the data were processed

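The members and gene lists were chosen with earlier results of these data known. As deposited, the scanner's output of an array gives a processed intensity for every spot on a linear scale. Agilent Feature Extraction (9.5.1.1 or 9.5.3.1) made it by subtracting background and correcting trends across the array, and the arrays are not normalized to each other. A table deposited by the authors, on the natural log scale (ln of the processed signal minus 1 constant per array), served as an alternative. Here the log2 of the processed signal was used. A spot counted as failed, and as missing, where it was saturated, not uniform or not well above background. A probe was dropped where over 50% of its spots failed in LM or in SM. From each array the median over all spots of the remaining probes was then subtracted, and single values over 3 SD away from their probe's mean were taken out. limma 3.58.1 in R 4.3.3 fitted the muscle to 10987 probes, with Benjamini-Hochberg adjustment and calls at 0.05 or less, and statmod 1.5.0 served random blocks. Correlations and changes were tested with 100000 permutations in Python 3.11.15 with NumPy 2.4.6, pandas 2.3.3 and SciPy 1.17.1, and matplotlib 3.10.9 drew the figures. Tests were two-sided, and the scripts were tested on simulated data. The simulated arrays of the muscle comparison held no slide or scan day effects, so they cannot show how such effects change its errors. How precise a mean is depends on its number of arrays.

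The labels give both muscles of a pig the same pig and replicate number in all 90 pigs. Across probes, the deviations of both muscles of a pig from the muscle means had a median correlation of 0.048 (64 of 90 above 0). The pig was a block in an alternative only. The study's model also holds sex, weight of the carcass and batches of slaughter and hybridization, for which no label was at hand, and these terms were left out. Alternatives were normexp correction (offset 50), quantile normalization, the 75th percentile for centring, keeping failed spots, keeping outlying values, keeping dim probes, random blocks for slide or scan day (their means subtracted for correlations), the software version, and the index of C-rich probes. Added after the data were examined were the position on the slide, left-out slides, the median of usable spots, and slide means with the index. Genes were named by rule: the members, the genes of the lists that the published gene lists name, and the 3 named probes most like each member. Only part of the second published list was at hand.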

Additional observations from a re-analysis of the deposited data

Results flagged for a closer look

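The correlation between CCND3 probe A and CDKN1B differed between the muscles. Over the 80 pigs with both values, r was -0.092 in LM and 0.31 in SM, and their Fisher z values differed by -0.411 (swapping of the muscles within pigs, permutation p = 0.0076, adjusted 0.045 over 6 pairs). Under 13 other settings the adjusted p ran from 0.0021 to 0.87, and the call was lost in 9 of them. The other CCND3 probe, which reads the same transcript contig, gave a difference of -0.17 with the same inhibitor (adjusted p = 0.52). The signal of CDKN1B followed the index of C-rich probes in both muscles (r of 0.85 and 0.93), and that of CCND3 probe A followed it in SM (0.40) and had an r of 0.096 in LM. With the index taken out in each muscle, the difference was -0.22 and no longer past the threshold (adjusted p = 0.35).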

How the results depend on the processing

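The log2 fold changes of CCND2 (-0.81 to -0.56) and of both CCND3 probes (-1.40 to -1.04 for probe B, -1.24 to -0.98 for probe A) kept direction and call under 18 alternatives, and CDKN1B did under 15. CDKN1B was at 0.41 with the index of C-rich probes, at 0.35 with the index and the pig as a block, and at 0.39 with the index and the position on the slide. Scan day as a random block raised the SE from 0.067 to 0.11 for CCND2 and from 0.071 to 0.12 for CDKN1B. For CCND3 it rose from 0.031 to 0.050 (probe A) and from 0.032 to 0.051 (probe B). The intervals and p values given for the muscle difference come from the fit without such blocks and are narrower. With the pig as a block alone, which uses the pairing, CCND2 stayed at -0.70, CCND3 at -1.28 and -1.12, and CDKN1B was at -0.62; the block changed no call. Of the 10987 probes, 9169 were called (3925 higher in LM, 5244 in SM), 6027 in the deposited table of fewer probes (3162 higher in SM), and with no filter on dim probes 6114 were called higher in LM.

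The correlation of the CCND3 probes kept its call in LM under 13 alternatives and in SM under 12, with 0.39 and 0.45 under normexp and 0.69 to 0.88 under the others. The weak relations changed sign or call as follows, and the cause was not tested. With slide means subtracted, r in LM was -0.15 for CCND2 with CCND3 probe A, 0.26 for CCND3 probe A with CDKN1B and 0.078 for probe B with CDKN1B, and 0.24 for probe A with CDKN1B in SM. Between muscles of a pig it was -0.10 and -0.0089 for CCND3 (probes A and B) and -0.077 for CDKN1B, and z differences between muscles were -0.050 (CCND2 with CDKN1B) and 0.027 (CCND3 probe A with CDKN1B). With scan day means subtracted, the same 3 pairs in LM were at -0.046, 0.19 and 0.11, the between-muscle r of probe A and CDKN1B at -0.052 and -0.022, and the same 2 z differences at -0.024 and -0.17. With slide means and the index taken out, those pairs in LM were at -0.13, 0.12 and 0.058, CCND2 with CDKN1B at -0.35 in LM and -0.30 in SM, the CCND3 probes with CDKN1B in SM at -0.062 (A) and -0.061 (B), the between-muscle r at -0.078, -0.0081 and -0.077, and the z differences of the CCND3 probes with CDKN1B at 0.12 and 0.066. With the index alone, the CCND3 probes with CDKN1B in SM were at -0.060 (A) and -0.0022 (B), CDKN1B between muscles at -0.080, and the 2 z differences at -0.21 and -0.22. With position means subtracted, CCND2 with CDKN1B in LM was at 0.018, CCND2 and CDKN1B with probe B in SM at 0.26 and 0.36 (both past the threshold), and probe A and CDKN1B between muscles at -0.015 and -0.035.

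With normexp, CCND2 with probe A in LM was at -0.036, probe A between muscles at -0.0071, the CCND3 probes' gap in change at -0.019, and z differences at 0.029 (CCND2 with probe B), -0.017 (CCND2 with CDKN1B) and -0.53 (probe A with CDKN1B). With failed spots kept, the CCND3 probes with CDKN1B in LM were at 0.095 and 0.099 and the 2 z differences at -0.034 and -0.30. With the median of usable spots, probe B with CDKN1B was at 0.021 in LM and, past the threshold, at 0.26 in SM, CCND2 with probe B in SM at 0.29 (past it too) and CCND2 with CDKN1B in z at -0.044. With quantile normalization, CCND2 and CDKN1B with probe B in SM passed at 0.29 and 0.26, and the 2 z differences were at -0.037 and -0.28. Centring on the 75th percentile gave 0.26 for probe A with CDKN1B in SM and -0.30 in z, software version means gave 0.0025 for probe B with CDKN1B in LM and -0.34 in z for probe A, and the deposited table gave z differences of 0.049 and 0.0048 for CCND2 with probes A and B.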
